A study of Mus musculus with 12 samples.

Results

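The myelin genes of mature oligodendrocytes Mbp, Mog, Mag, Mobp, Cnp, Cldn11, Ugt8a, Mal, and Opalin were followed in the brainstem of neonatal mice that had received morphine or saline. These 9 were chosen by name, as the rows of the count table that carry these symbols, and they are 9 of the 55418 genes counted. All 9 passed the filter on low counts, which kept 19027 genes over the 12 libraries. The mice were outbred CFW (Swiss Webster) pups. From P1 through P14 they were injected under the skin 2 times a day with saline or with morphine at 15 mg/kg. Each of the 12 poly-A RNA libraries came from the brainstem (medulla and pons) of 1 mouse killed on P15, at 16 h of abstinence, with 3 mice for each pairing of treatment and sex. The saline mice had the same handling and injections, so by design the groups of a sex differ by the drug. The libraries also differed in other ways, which are given below. The tissue was taken during spontaneous withdrawal from morphine. The label for RNA extraction names spinal cords while the tissue label names brainstem. Tph2, a gene of the serotonergic raphe neurons of the brainstem, was at 19.7 to 41.9 CPM (counts scaled to the effective library size), and Dbh, a gene of noradrenergic neurons there, at 3.37 to 9.63 CPM. Hoxc10 and Hoxd10, which mark the lumbar spinal cord, were at 0.0299 CPM or less and 0.0869 CPM or less.

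Myelin is the stack of membrane that a mature oligodendrocyte wraps around an axon, and it speeds conduction and supports the axon. In rodents, oligodendrocytes of the brainstem and spinal cord begin to make myelin around birth and those of the forebrain follow, so the second postnatal week falls in the steep part of this program. Mbp encodes myelin basic protein, which holds the cytoplasmic faces of the membrane together, and Mobp a second small basic protein of compact myelin. Mog and Mag encode immunoglobulin-like surface proteins, Mog on the outermost lamella and Mag on the innermost one that faces the axon. Cnp encodes a cytoskeletal enzyme that keeps cytoplasmic channels open between the layers. Cldn11 encodes the claudin of the tight junctions that seal the lamellae, and Mal a proteolipid that sorts myelin membrane. Ugt8a encodes the enzyme that makes galactosylceramide, the main glycolipid of myelin, and Opalin a sialylated membrane protein of mature oligodendrocytes.

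The sequences below are of the members with the most extreme GC content and of the members called after morphine. The members with the highest and the lowest GC content of their longest transcript were Mag, at 57.6%, and Ugt8a, at 38.0%. The libraries differed in how gene levels varied with GC content, as given below, and the cause was not tested. The first 120 bases of the longest coding exon stretch of each are given with G and C in capitals. For Mag this is exon 5 of its longest coding transcript (chr7:30911650-30911769, minus strand, GRCm38), with 63.3% GC. For Ugt8a it is exon 1 of its longest coding transcript (chr3:125915340-125915459, minus strand, GRCm38), with 40.0% GC.

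Mag: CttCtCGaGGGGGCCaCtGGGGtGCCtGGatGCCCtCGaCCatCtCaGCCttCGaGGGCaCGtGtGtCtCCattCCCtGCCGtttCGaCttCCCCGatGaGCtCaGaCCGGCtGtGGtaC

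Ugt8a: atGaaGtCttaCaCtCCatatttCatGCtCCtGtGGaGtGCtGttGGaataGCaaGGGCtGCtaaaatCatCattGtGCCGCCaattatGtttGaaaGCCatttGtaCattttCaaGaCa

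The second pair is the 250 bases before the RefSeq start of Cldn11 and of Mobp (GRCm38.p6), the 2 members whose change after morphine passed the thresholds below. RefSeq promoters were found for 8 of the 9 members. The 8 motifs searched, on both strands, were chosen with these sequences in view. Those of SOX factors were spelled ACAAAG and, in a shorter form, as ACAAT. Those of MYRF, the regulator of myelin genes, were spelled CTGGCAC and, with another base in the middle, as CTGGTAC. The E-box was spelled CAGCTG. The TATA box was spelled TATAAA and the CCAAT box as its name. The GC box was spelled GGGCGG. In the Mobp window (chr9:120149492-120149741, plus strand) the capitals mark ACAAAG read on the other strand, which occurred 6 times. One or more copies of ACAAAG stood in 16.5% of the 32851 promoters of this table, and the Mobp window was the only 1 with 6 or more. In the Cldn11 window (chr3:31149670-31149919, plus strand) the capitals mark CCAAT read on the other strand, which occurred 2 times and stood in 33.8% of promoters. 

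Mobp: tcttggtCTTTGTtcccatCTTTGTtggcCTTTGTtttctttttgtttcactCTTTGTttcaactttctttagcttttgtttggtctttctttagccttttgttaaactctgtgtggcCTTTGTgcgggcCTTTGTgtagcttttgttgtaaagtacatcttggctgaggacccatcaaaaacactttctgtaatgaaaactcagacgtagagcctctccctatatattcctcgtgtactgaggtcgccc

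Cldn11: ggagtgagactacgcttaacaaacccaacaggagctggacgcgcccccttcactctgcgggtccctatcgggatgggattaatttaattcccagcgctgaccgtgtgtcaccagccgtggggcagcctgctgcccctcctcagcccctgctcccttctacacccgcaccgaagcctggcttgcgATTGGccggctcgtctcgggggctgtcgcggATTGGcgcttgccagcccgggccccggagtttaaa

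Of the other members, the windows of Mag (2 of its 3 promoters), Cnp, and Opalin held 1 ACAAAG each. The same windows of Mag and Cnp held 1 CTGGCAC each, which stood in 4.2% of promoters, and that of Mog held 1 CTGGTAC, which stood in 1.8%. The GC box, in 32.7% of promoters, occurred 3 times for Ugt8a and 2 times for Cnp. For Mag, CCAAT occurred 1 time in 1 of the 2 windows with ACAAAG and 2 times in the window without it. Of ACAAAG, the MYRF spellings, the GC box, and CCAAT, none was found for Mal. These matches describe letters, and binding was not measured.

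The libraries held 27850565 to 48097947 counts, and the 9 myelin genes took 2.08% to 4.21% of them. Mbp alone took 0.813% to 2.62%. The library labelled morphine male 6 went against its sex label: it had 380.2 CPM of Xist, the RNA of the inactive X chromosome, and 12.8 CPM of the Y-linked Ddx3y, where the other 5 males had at most 2.65 CPM of Xist and at least 115.04 CPM of Ddx3y. It lay between the sexes, since the 6 females had 550.6 to 977.8 CPM of Xist and at most 0.734 CPM of Ddx3y. Values with and without it are given below. The libraries also differed by GC content, measured as the slope of a gene's level against the GC content of its longest transcript, in log2 units per 10% GC. Saline males 1 and 2, at 0.43 and 0.54, and the library labelled morphine male 6, at 0.26, had relatively higher levels of GC-rich transcripts. Saline male 3, at -0.52, and saline female 6, at -0.32, had relatively higher levels of GC-poor ones, and the other 7 lay between -0.16 and 0.063. The summed level of 5 cerebellar granule cell markers was 31.3 to 32.2 CPM in saline males and 40.2 to 80.2 CPM in morphine males. It was 21.1 to 41.5 CPM in saline females and 31.7 to 40.6 CPM in morphine females. That of 5 choroid plexus markers was 264.6 to 520.2 CPM in saline males and 413.7 to 835.1 CPM in morphine males. In saline females it was 9.68 to 471.4 CPM and in morphine females 29.3 to 163.6 CPM.

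All 9 members were expressed in each of the 12 libraries. Levels were compared between genes per kilobase of exon, as TPM, the level corrected for length and scaled to the library, over all annotated exon bases. Mbp was highest, with a median of 5862 TPM and a range of 3647 to 11649. Mal (median 2655 TPM), Cldn11 (2539), Mobp (2447), Cnp (2419), Mog (2119), and Ugt8a (1599) followed. The range of Mbp lay above that of Mal, whose highest library had 3350 TPM. From Mal to Mog each gene's range overlapped that of its neighbor in this order, and these neighbors cannot be ranked beyond the spread of the libraries. Mog, with at least 1955 TPM, and Ugt8a, with at most 1949, did not overlap on this length. Mag followed with a median of 837.1 TPM and a range of 464.0 to 1518, which overlapped that of Ugt8a. Opalin was lowest, at a median of 117.3 TPM and a range of 91.2 to 142.0, and did not overlap Mag. When the longest transcript set the length, Mbp stayed highest and Opalin lowest, Mobp moved to second place at a median of 4053 TPM, and Mog (1558 to 2052 TPM) and Ugt8a (1230 to 1894 TPM) overlapped. Mobp shares 79 exon bases with Gm38642 on the same strand, and Cnp shares 154 with Dnajc7 on the opposite strand, so their levels may hold reads of those genes. In GRCm38, Cldn11 lies at chr3:31149920-31164324 and Mobp at chr9:120149707-120181484, both on the plus strand, and Mag at chr7:30899176-30914873 and Ugt8a at chr3:125865271-125938619, both on the minus strand. All 9 are annotated as protein coding.

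Several members are also made by Schwann cells of the nerve roots. The 8 markers of those cells summed to 56.0 to 177 CPM. Of these, Pmp2 lay at or under 0.215 CPM.

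The first comparison asked whether the 6 morphine mice differed from the 6 saline mice with sex as a covariate. Genes were called at an unadjusted p under 0.05 with an absolute log2 fold change over 0.26. Benjamini-Hochberg adjusted p values from the same edgeR quasi-likelihood fit were read beside them. Cldn11, the tight junction gene, was the only member called, and it fell by 18.1% after morphine (log2 fold change -0.29 ± 0.097 SE, unadjusted p = 0.0107, adjusted p = 1 in edgeR). All 9 members had negative fold changes, with a median log2 fold change of -0.19 beside -0.021 over all tested genes. Scaling by total counts put Cldn11 at -0.24, under the threshold on the fold change, so that no member was called, and turned Opalin to 0.029. In bulk tissue, fewer oligodendrocytes and less of an RNA per oligodendrocyte cannot be told apart. Over all genes 1.24% were called, 0% had an adjusted p under 0.05 in edgeR (258 genes had an unadjusted p under 0.05, and DESeq2 also gave 0 adjusted), and 0.042% did not overlap between the 6 and the 6.

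For Cldn11 the 6 saline mice ran from 1194 to 1504 CPM with a median of 1343. The 6 morphine mice ran from 892.4 to 1343 CPM with a median of 1072. The 3 morphine males and morphine female 1 were below every saline mouse, and morphine females 2 and 3 lay within the saline range. An exact two-sided permutation test over mice on log2 CPM gave p = 0.0195 for Cldn11 (924 arrangements, n = 6 and 6) and 0.0866 or more for each of the other 8 members, where the smallest value that the design allows is 0.00216. Without saline male 2 the value was -0.25 (unadjusted p = 0.0243) and without morphine male 4 it was -0.24 (unadjusted p = 0.031), and both then missed the threshold on the fold change.

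The other members missed the threshold on p. Among the membrane lipid and sorting genes, Ugt8a was at -0.20 ± 0.11 (unadjusted p = 0.0764) and Mal at -0.19 ± 0.093 (unadjusted p = 0.0647). Of the 2 basic proteins, Mobp was at -0.21 ± 0.11 (unadjusted p = 0.0798), and Mbp at -0.29 ± 0.28 (unadjusted p = 0.317) had the same fold change as Cldn11 with a larger standard error. The surface proteins Mag and Mog were at -0.15 ± 0.23 and -0.084 ± 0.084, Cnp at -0.11 ± 0.16, and Opalin at -0.020 ± 0.12. All 9 adjusted p values were 1.

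**Figure D1:**
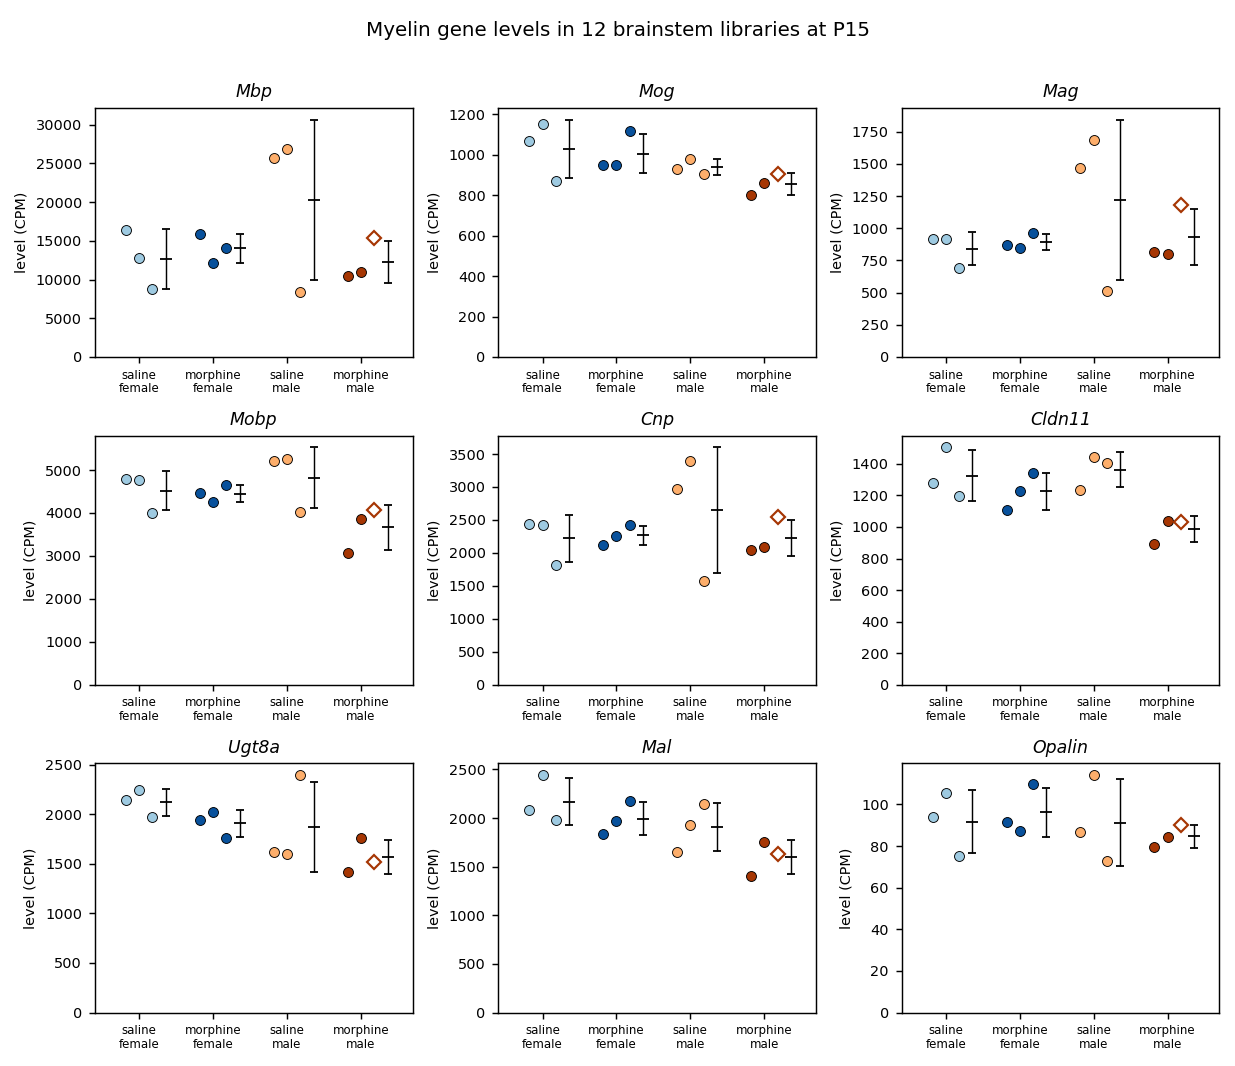
Levels of the 9 genes in CPM (vertical axes, from 0) in each library of the 4 groups (horizontal axes); points are mice, the open diamond is the library labelled morphine male 6, and bars give the mean and SD of 3 mice. The 3 morphine males of Cldn11 sit between 892.4 and 1037 CPM, below all 3 saline males, while Mbp and Mag of saline males are split into 2 high libraries and 1 low one.

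The sexes were then fitted alone. In males all 9 members had negative fold changes, with a median of -0.28 beside -0.064 over all genes, and 2 were called. Cldn11 fell by 28.8% in morphine males (-0.49 ± 0.13 SE, unadjusted p = 0.00795, adjusted p = 0.9999 in edgeR). Saline males had 1235, 1443, and 1406 CPM of Cldn11 and morphine males 892.4, 1037, and 1030.5 CPM, so the groups did not overlap. Mobp fell by 25.2% (-0.42 ± 0.18 SE, unadjusted p = 0.0495, adjusted p = 0.9999 in edgeR). Its 3 saline males had 5206, 5251, and 4013 CPM and its morphine males 3075, 3861, and 4068 CPM. Saline male 3 lay between morphine males 5 and 6, so these groups overlapped. Over all genes tested in males 2.99% were called, 0% had an adjusted p under 0.05 in edgeR and in DESeq2, and 8.86% did not overlap between groups. The 543 called genes had 64.3% higher in morphine males, and this share was 91.3% with scaling by total counts, which moved the median of all genes from -0.064 to 0.061. With that scaling Cldn11 was at -0.37 and still called, and Mobp was at -0.30 (unadjusted p = 0.131) and was not.

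The call on Mobp was close to the threshold. It was lost with DESeq2's size factors (unadjusted p = 0.0556), with the Wald test of DESeq2 (unadjusted p = 0.0639), and when 10 counts were asked of each library (unadjusted p = 0.0614). It was also lost without saline male 1, saline male 2, morphine male 4, or morphine male 5, with p from 0.128 to 0.167. Cldn11 was called in males in all 9 other settings and, with any 1 of the 6 mice left out, where it ranged from -0.56 to -0.42. Without the library labelled morphine male 6, Cldn11 was at -0.53 ± 0.17 (unadjusted p = 0.0207) and Mobp at -0.51 ± 0.21 (unadjusted p = 0.0499). In the sex-combined fit without that library Cldn11 was at -0.28 ± 0.11 (unadjusted p = 0.0229) and was again the only member called.

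The largest estimate in males belonged to Mbp, at -0.75 ± 0.43 SE (unadjusted p = 0.125), and it was not called. With no filter on low counts it was called (-0.76, unadjusted p = 0.0358), beside Cldn11 and Mobp. Saline males had 25651, 26889, and 8368 CPM of Mbp and morphine males 10522, 10923, and 15421 CPM. Saline male 3 had the lowest level of all 12 libraries and its 2 group mates the highest levels. Mag, at -0.41 ± 0.42 (unadjusted p = 0.362), was likewise highest in saline males 1 and 2 and lowest in saline male 3, with 1465, 1684, and 511.8 CPM in saline males and 816.6, 798.9, and 1182 CPM in morphine males. Cnp, at -0.27 ± 0.28, did so too, with 2973, 3396, and 1580.0 CPM against 2045, 2087, and 2543 CPM. Without saline male 3, Mbp was at -1.08 (unadjusted p = 0.00013), Mag at -0.74 (unadjusted p = 0.00283), and Cnp at -0.51 (unadjusted p = 0.00352), and 5 members were called, all 5 with an adjusted p under 0.05 in edgeR (smallest adjusted p = 0.0114). In that fit 28.6% of all genes were called, against 2.99% with the library, and 2141 had an adjusted p under 0.05, so the count of members stands beside a shift of the whole table. That library was the one with the lowest GC slope, and its 2 group mates had the highest, as described next.

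Ugt8a, Mal, Mog, and Opalin were at -0.28 ± 0.20, -0.28 ± 0.16, -0.16 ± 0.12, and -0.13 ± 0.18 in males, and none passed the test. Ugt8a in saline males had the opposite order to Mbp. It stood at 2395 CPM in saline male 3 and at 1622 and 1600.4 CPM in the other 2, against 1423 to 1758 CPM in morphine males.

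In females no member was called, where 1.81% of genes were called over the whole table, 0% had an adjusted p under 0.05, and 5.67% did not overlap. DESeq2 gave 3 genes with an adjusted p under 0.05 in this comparison, and edgeR 343 at an unadjusted p under 0.05. The fold changes of the members were small, from -0.16 for Ugt8a (SE 0.084, unadjusted p = 0.0852) to 0.14 for Mbp (SE 0.19, unadjusted p = 0.460), with 5 negative and 4 positive and a median of -0.028. Cldn11 was at -0.12 ± 0.11 (unadjusted p = 0.282). Saline females had 1280, 1504, and 1194 CPM of it and morphine females 1107, 1227, and 1343 CPM, and the groups overlapped. Mobp was at -0.028 ± 0.085, with 3992 to 4788 CPM in saline and 4247 to 4644 CPM in morphine females.

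**Figure D2:**
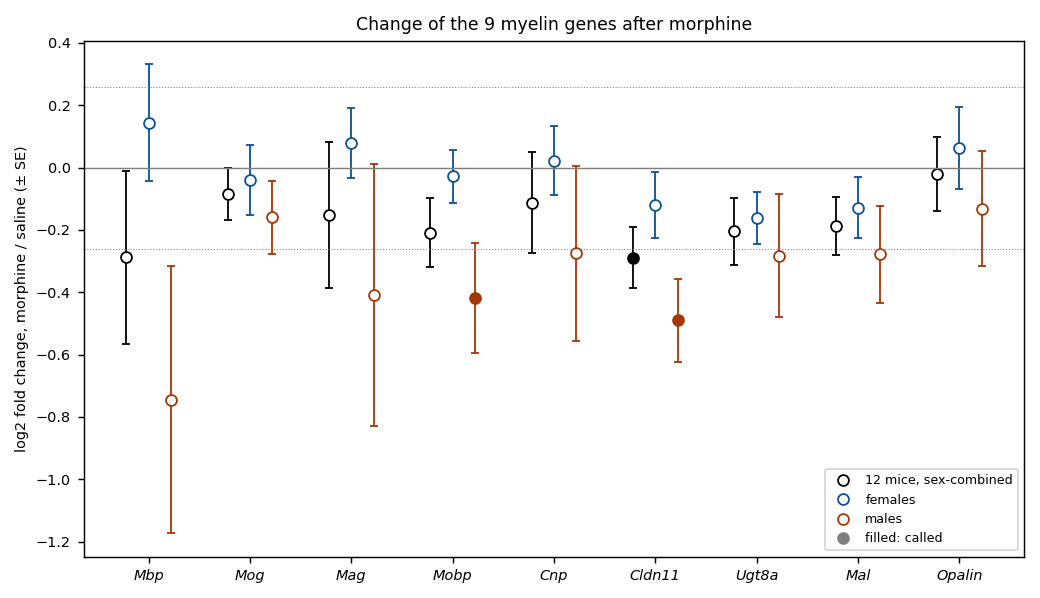
Log2 fold change of morphine over saline with its SE (vertical axis) for each of the 9 genes (horizontal axis) in the 12 mice with sex as a covariate, in females, and in males. Filled points are called, which are Cldn11 at -0.29 in the 12 mice and at -0.49 in males and Mobp at -0.42 in males; the dotted lines mark 0.26 on either side.

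Whether the change differed between the sexes was tested as an interaction, the change in males minus that in females. No member passed, where 2.94% of genes were called and 0% had an adjusted p under 0.05 in edgeR and in DESeq2, with 559 at an unadjusted p under 0.05. All 9 estimates were negative with a median of -0.28, beside -0.033 over all tested genes. They ran from -0.87 ± 0.51 for Mbp (unadjusted p = 0.113) to -0.10 ± 0.17 for Mog (unadjusted p = 0.566). Cldn11 was at -0.35 ± 0.18 (unadjusted p = 0.0685) and Mobp at -0.37 ± 0.20 (unadjusted p = 0.0881). The difference between the sexes thus missed the threshold for both genes in this fit, and it passed for both with the offsets for GC content described below. Without the library labelled morphine male 6 they were at -0.38 (unadjusted p = 0.0743) and -0.46 (unadjusted p = 0.0577).

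Saline females and saline males were compared for the level of the members without morphine. No member was called, beside 2.47% of all genes, 0.0331% with an adjusted p under 0.05, and 4.28% that did not overlap. Mbp was at -0.72 ± 0.44 (unadjusted p = 0.143) and Mag at -0.57 ± 0.40 (unadjusted p = 0.192), female over male, and the other 7 lay between -0.29 and 0.15. Without saline male 3 the 4 members Mbp, Mag, Cnp, and Ugt8a were called, with Mbp at -1.09 (unadjusted p = 0.000421) and Ugt8a in the other direction, and all of these passed 0.05 after adjustment. In that fit 37.3% of all genes were called and 4597 had an adjusted p under 0.05.

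The members thus varied in 2 ways over the libraries. Mag and Mbp had 3.29 and 3.21 times as much in their highest as in their lowest library, and Cnp 2.15 times. For the other 6 this ratio was 1.44 to 1.73. Only the SDs of Mbp (0.53 log2 units), Mag (0.46), and Cnp (0.30) were above the median SD of all tested genes, which was 0.28. Their levels followed the GC slope of the library over the 12 libraries, with Pearson r of 0.98 for Mag, 0.94 for Cnp, and 0.92 for Mbp and Spearman rho of 0.86, 0.82, and 0.83. Leaving out saline males 2 and 3, the 2 libraries farthest out, gave r of 0.95, 0.85, and 0.86. Ugt8a, the member with the lowest GC content, ran the other way (r = -0.70, rho = -0.71). Cldn11 (r = -0.025), Mog (0.13), and Mal (-0.38) had weaker relations, and Mobp (0.50) and Opalin (0.60) lay between, with Opalin at 0.19 without the same 2 libraries. The relations were not ordered by GC content, which was 45.8% for Opalin, 50.9% for Cldn11, and 51.0% for Mbp. The slope is computed from the libraries in which the members were counted, so these values are a description.

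**Figure D3:**
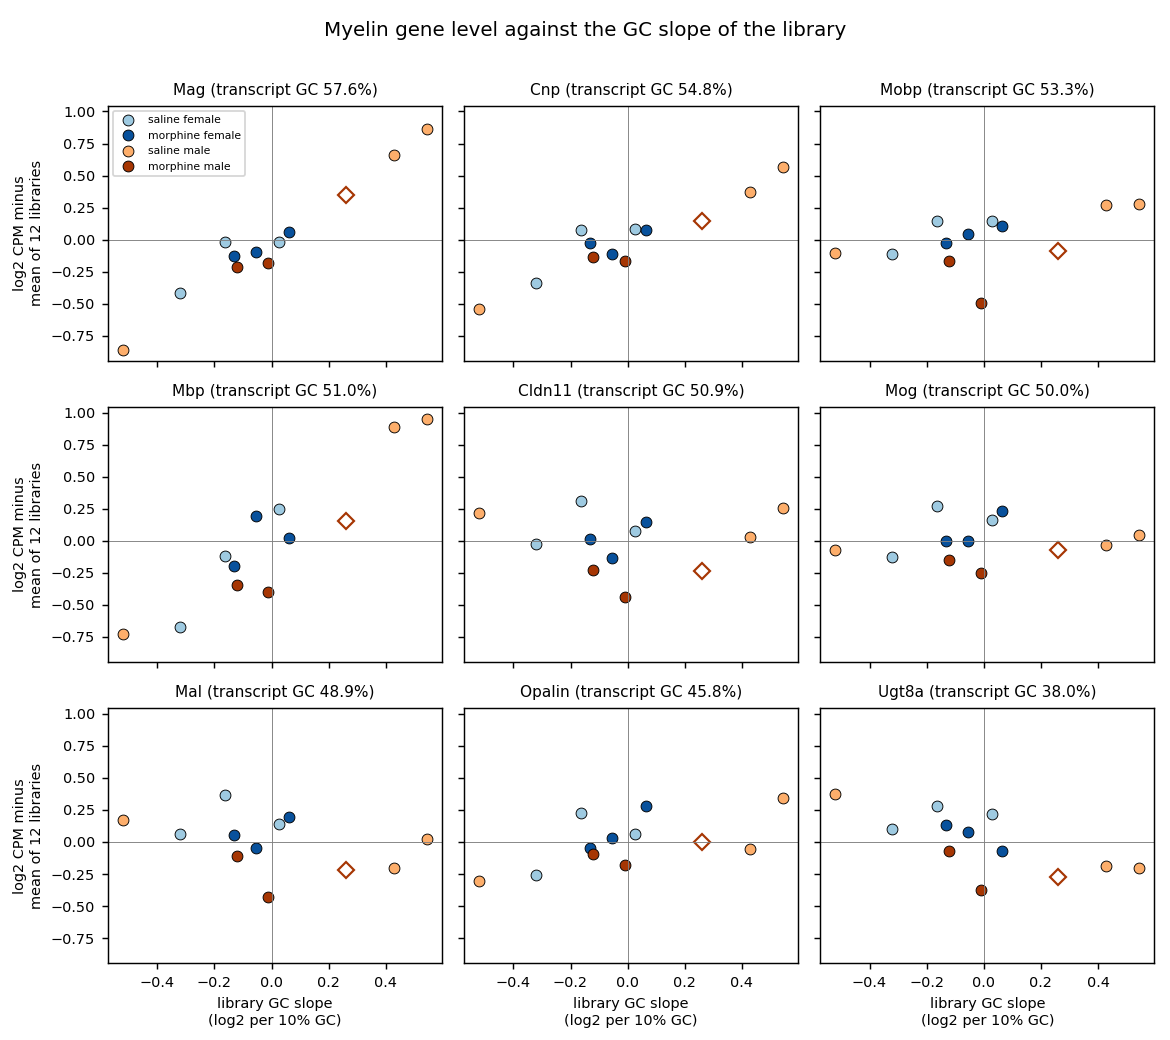
Level of each gene as log2 CPM minus its mean over the 12 libraries (vertical axes) against the GC slope of the library in log2 per 10% GC (horizontal axes), with panels ordered by transcript GC content from Mag to Ugt8a; points are libraries and the open diamond is the library labelled morphine male 6. Mag, Cnp, and Mbp rise with the slope (r of 0.98, 0.94, and 0.92), Ugt8a falls (r = -0.70), and Cldn11 has r = -0.025.

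Counts were then adjusted with loess offsets for GC content, a setting chosen after the libraries were seen to differ. The highest over the lowest library became 1.36 for Mag and 1.29 for Cnp, while Mbp kept 2.83. This ratio rose for Opalin from 1.57 to 1.98 and for Cldn11 from 1.69 to 1.81. It also rose for Ugt8a from 1.68 to 1.73, for Mal from 1.73 to 1.76, and for Mog from 1.44 to 1.49. For Mobp it went from 1.71 to 1.69. With the offsets Mbp still had 24492 and 25182 CPM in saline males 1 and 2 and 9353 CPM in saline male 3. The longest transcript of Mbp has 51.0% GC, but its 14 coding transcripts range from 51.0% to 59.0%, and the offsets use the former value. Offsets with another GC value for Mbp were not tested. Of the 36 pairs of members, 7 had a negative correlation over the libraries before the adjustment and 0 after it, and the median r went from 0.56 to 0.66. Cldn11 and Mal went from 0.86 to 0.94 and Mobp and Mal from 0.51 to 0.92, while Mbp and Mobp went from 0.74 to 0.21 and Mobp and Opalin from 0.67 to 0.18.

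In males the offsets left Cldn11 at -0.51 ± 0.11 (unadjusted p = 0.00213) and Mobp at -0.39 ± 0.11 (unadjusted p = 0.00982), and Ugt8a at -0.27 (unadjusted p = 0.0301) and Mal at -0.31 (unadjusted p = 0.0295) were called as well. With offsets 7.4% of all genes were called in males, against 2.99% without, and 0 had an adjusted p under 0.05. Adjusted levels of Mobp were 4483, 4349, and 5030 CPM in saline males and 2984, 3881, and 3686 CPM in morphine males. Mag moved to -0.10 ± 0.13 and Cnp to -0.15 ± 0.088, and neither passed the test. In females Mag moved from 0.080 to -0.038 and Cnp from 0.023 to -0.037. The interaction with offsets was -0.41 for Cldn11 (unadjusted p = 0.0318) and -0.33 for Mobp (unadjusted p = 0.0437), beside 6.08% of all genes called.

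**Figure D4:**
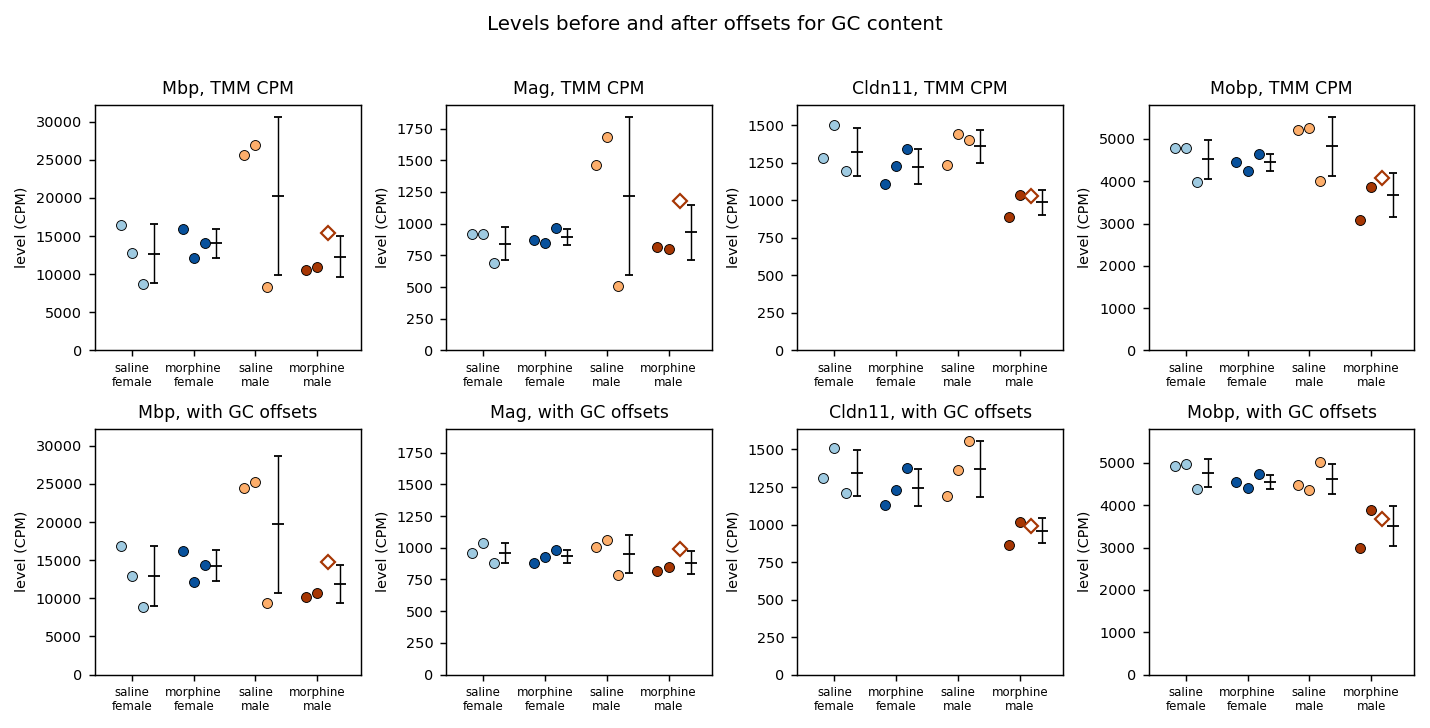
Levels in CPM (vertical axes, from 0) of Mbp, Mag, Cldn11, and Mobp in the 4 groups before (top) and after (bottom) offsets for GC content; points are mice, the open diamond is the library labelled morphine male 6, and bars are the mean and SD of 3 mice. The spread of Mag shrinks to 1.36 times between libraries, that of Mbp remains 2.83 times, and the 3 morphine males of Cldn11 lie between 862.4 and 1020.1 CPM.

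The rest of the program was read from 5 lists. Of 25 other genes of myelin and mature oligodendrocytes, 22 had negative fold changes in the sex-combined fit (median -0.13) and 0 were called. The gap junction gene Gjb1 was at -0.15 ± 0.20 (unadjusted p = 0.465). In males 22 of 25 were negative (median -0.21) and only Lpar1, a lysophosphatidic acid receptor of oligodendrocytes, was called, at -0.29 ± 0.12 (unadjusted p = 0.0498). Without the library labelled morphine male 6 no gene of this list or of the transcription factors was called in males. Of 20 genes of myelin lipid synthesis 19 were negative in the sex-combined fit (median -0.091) and 0 were called in any of the 3 fits. Fa2h, which hydroxylates the fatty acids of galactosylceramide, was at -0.18 ± 0.17, and Gal3st1, which sulfates that lipid, at -0.29 ± 0.33.

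Of 12 transcription factors of the lineage 9 were negative in the sex-combined fit (median -0.12) and 0 were called. Myrf, which switches on the myelin genes, was at -0.12 ± 0.18, and Sox10, which marks the lineage, at -0.22 ± 0.32. Olig2 was called in males, at -0.45 ± 0.17 (unadjusted p = 0.0351), with 80.5, 90.9, and 59.5 CPM in saline and 57.5, 56.6, and 57.5 CPM in morphine males. Olig2 and its paralog Olig1 were called in the interaction, at -0.52 (unadjusted p = 0.0358) and -0.92 (unadjusted p = 0.0426). Nkx6-2, a homeodomain factor of oligodendrocytes, was called between saline females and saline males, at -1.74 (unadjusted p = 0.0356). Olig2 has a GC content of 58.5%, Olig1 of 61.1%, and Nkx6-2 of 64.3%, above that of Mag. Their levels were highest in saline male 2, the library with the highest GC slope. Olig1 and Nkx6-2 were lowest in saline male 3, the library with the lowest slope, but Olig2 was lowest in saline female 6, at 54.6 CPM. The part of GC content in these calls was not tested.

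The last lists held earlier stages of the lineage and the axonal partners of myelin. The 15 genes of precursors and newly formed oligodendrocytes had a median of -0.023 in the sex-combined fit, beside -0.021 over all genes, with 0 called in any of the 3 fits. Pdgfra, the growth factor receptor of precursors, was at 0.066 ± 0.079 and Cspg4 at -0.12 ± 0.24. The 15 genes of the paranode, the node, and axon contact had a median of 0.0072 with 0 called. Cntnap1 was at 0.018 ± 0.18 and Nfasc at 0.063 ± 0.14. The difference between these lists and the members was not tested.

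Among the marker lists of other cells, 3 of 5 cerebellar granule cell genes were called higher in the sex-combined fit and in males, namely Cbln3, Fat2, and Gabra6. The log2 fold change of Gabra6, a receptor subunit of granule cells, was 0.99 and 1.35. Of 5 choroid plexus genes 3 were called higher in males, namely Folr1, Clic6, and Kl, and the median of the 5 was 0.72. In females all 5 were negative, with a median of -0.83, and 0 were called. Their summed level was 9.68, 40.2, and 471.4 CPM in saline females and 163.6, 29.3, and 128.0 CPM in morphine females. Of the saline females, only saline female 6 lay above all morphine females. Of 4 meningeal fibroblast genes 1, Dcn, was called lower, in the sex-combined fit and in females. Of 8 Schwann cell genes 1, Fxyd3, was called lower, in females. None of the neuron, astrocyte, microglia, endothelial cell, or red blood cell markers was called in these 3 fits. In males the markers were negative in 4 of 4 for red blood cells (median -0.66), 4 of 4 for meningeal fibroblasts (-0.24), 6 of 6 for astrocytes (-0.22), 7 of 8 for neurons (-0.21), and 5 of 6 for microglia (-0.17). The endothelial cell markers were negative in 3 of 5 (-0.011) and the Schwann cell markers in 3 of 6 (0.018). The median over all genes in males was -0.064. The part of the marker shifts in the values of Cldn11 and Mobp was not tested.

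The member score, the mean over the 9 of each one's standardized log2 CPM, was lowest in morphine male 4 (-1.34) and highest in saline male 2 (1.02). The 10 genes of 19018 with the highest correlation with it over the 12 libraries were Plekhb1 (r = 0.95, rho = 0.92), Cd9, Gpr62, Ttyh1, Tpst1, Apod, Srd5a1, Mmd2, Lap3, and Mien1 (r = 0.90, rho = 0.89). Cd9 and Gpr62 are among the 25 other myelin genes. Gpr62, an orphan receptor, ran from 21.6 CPM in morphine male 4 to 33.7 CPM in saline male 2. The libraries are shared by all these genes, and the order of the correlations is a description.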

How the data were processed

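Brainstem RNA of 12 mice was sequenced single-end (100 bp) on 1 lane. The authors used Trimmomatic for trimming, STAR for alignment to mm10, and featureCounts for counting over Ensembl exons. Their deposited counts are whole numbers whose totals differ between libraries, and they were used as raw counts. Whether counting used strand is not given in the sources used here, and reads split between overlapping genes cannot be traced. Groups came from the labels for treatment and sex. The study names dam as a covariate, but no label gives it, and it was not used.

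Genes were kept by filterByExpr on the 4 groups, normalized by TMM, and fitted over the whole table by edgeR 4.0.16 (R 4.3.3, quasi-likelihood). The sex-combined fit carried a term for sex, and each sex was also fitted alone. P values measure the spread between 3 or 6 mice, and the labels do not say which pups were littermates. Levels are CPM over the 12 libraries, and logs of them used a prior count of 2. Positions, exon length, and GC content came from GENCODE M21, in which all 55418 symbols were found. The lists, the rule for naming genes (every member, the first 2 genes of each list, the listed genes called, and the 10 genes most like the member score), and the members were chosen with earlier results of these data known. Some listed genes are not reported here. The scripts were tested on simulated data. The alternatives were DESeq2 1.42.0, DESeq2 size factors, total counts, 2 filters, exactTest, a fit without sex, a block on replicate number, the contrast from the fit of all mice, leaving out each mouse, and, chosen after seeing the data, loess offsets (span 0.5) for GC content alone and with length. Replicates of a group differed by more than counting noise, with a chi-square per degree of freedom of 12.06 or more.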

Additional observations from a re-analysis of the deposited data

How the results depend on the processing

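In the sex-combined fit 1 member was called in every setting except scaling by total counts, which gave 0 (Cldn11 at -0.24) and turned Opalin to 0.0294 in the fit and to 0.0447 in the permutation test. The replicate numbers do not pair mice (same-numbered saline and morphine mice differ in sex, and their deviations correlated at -0.34 to 0.18). A fit with the replicate number as a block gave 1 member called, 9 lower, and a median of -0.19, beside 1 called gene of the other myelin list, which the fit without a filter also gave. With 1 mouse left out, 0 to 2 members were called and 6 to 9 were lower, and the median ran from -0.25 to -0.13. The 0 came without saline male 2 or morphine male 4, and the 2 without saline female 6 (Mobp at -0.28).

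In males 1 member was called with DESeq2 size factors, total counts, the Wald test, or 10 counts in each library, 3 with no filter (Mbp added), 4 with offsets for GC content, 4 with offsets for GC content and length, and 1 to 5 with 1 mouse left out (5 without saline male 3, where 28.6% of all genes were called). In females 0 to 1 were called and 3 to 9 were lower. The 1 was Mbp, called higher after morphine, and it came without saline female 4, where 7.95% of all genes were called. The interaction gave 1 (Mbp) with no filter, 2 with either offsets, and 0 to 4 with 1 mouse left out. Saline females against males gave 1 (Mbp) with no filter and 0 to 4. Both 4s came without saline male 3, where 24.1% and 37.3% of all genes were called. Medians with 1 mouse left out ran from -0.43 to -0.22 in males, -0.10 to 0.051 in females, -0.38 to -0.17 for the interaction, and -0.17 to 0.0063 for the saline sexes.

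Called genes of the lists in males varied most. Over all genes in males 2.99% were called in the main fit, 7.4% with GC offsets, and 6.91% with GC and length offsets. The share was 2.79% to 4.44% in the other settings. With 1 mouse left out it was 1.36% to 28.6%, the highest without saline male 3. The other myelin list gave 0 with DESeq2 size factors, total counts, the Wald test, no filter, 10 counts in each library, or exactTest, 2 with GC offsets, 3 with GC and length offsets, and 0 to 9 with 1 mouse left out. Transcription factors gave 0 with total counts, 2 with the Wald test or exactTest, 3 with no filter or the contrast of all 12 mice, and 0 to 6. Lipid genes gave 2 with either offsets and 0 to 8. Precursor genes gave 1 with total counts, 2 with GC offsets, 1 with GC and length offsets, and 0 to 5, and paranode genes 0 to 4. In females the transcription factors gave 1 with no filter and the other myelin list 1 with either offsets. Over all genes in females 3.15% were called with no filter, 1.7% with GC offsets, and 1.73% with GC and length offsets. With 1 mouse left out, the lists gave at most 2 in females and at most 1 in the sex-combined fit. The share over all genes was then 1.12% to 7.95% in females and 1.02% to 2.46% in the sex-combined fit.

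Signs of small values turned. With GC offsets, and with GC and length offsets, Mag in females was at -0.0375 and -0.0333 and Cnp at -0.0366 and -0.0270. Between the saline sexes Mag was then at 0.0132 and 0.0020, Mobp at 0.0448 and 0.0350, and Cnp at 0.0287 and 0.0171, and Opalin was at 0.0435 with total counts and 0.0070 in the contrast of all 12 mice. With 1 mouse left out of the sex-combined fit, Mag ran from -0.3095 to 0.0100, Cnp from -0.2322 to 0.0011, and Opalin from -0.1008 to 0.0762. In females the ranges were -0.0562 to 0.3728 for Mbp, -0.1373 to 0.0507 for Mog, -0.0335 to 0.1480 for Mag, -0.0993 to 0.0163 for Mobp, -0.0946 to 0.0899 for Cnp, and -0.0510 to 0.1782 for Opalin. Opalin in males reached 0.0585. For the interaction Ugt8a ran from -0.2041 to 0.0902 and Opalin from -0.3401 to 0.0156, and for the saline sexes Cldn11 from -0.1358 to 0.0063 and Opalin from -0.1720 to 0.2014. The cause was not tested.

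Called genes over the whole table rose with no filter to 754 in the sex-combined fit, 1094 in females, 985 in males, 1665 for the interaction, and 2047 for the saline sexes. Asking 10 counts in each library gave 154 in the sex-combined fit, the contrast of all 12 mice 218 in females and 1449 for the saline sexes, and the Wald test 907 for the latter. GC offsets gave 1345 in males and 1156 for the interaction. The largest moves came without saline male 3, with 5341 in males, 4695 for the interaction, and 6966 for the saline sexes, and without saline female 4, with 1482 in females. Scaling by total counts moved the share of higher genes among those called from 49.4% to 71.5% in the sex-combined fit, from 64.3% to 91.3% in males, from 54.7% to 81.2% for the interaction, and from 22.5% to 38.5% for the saline sexes. GC offsets moved it to 37.5% in females (51.2% without), 50.04% in males, 37.8% for the interaction, and 41.3% for the saline sexes. With 3 mice a group, the spread of Mbp and Mag between saline males exceeds the changes compared.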
